A study of Mus musculus with 55 samples.

Results

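In mouse gene nomenclature a symbol ending in "-ps", with or without a number, marks a pseudogene, and the stem before it usually names the gene it resembles. Members of this set were the genes with such a symbol whose FPKM (fragments per kilobase of transcript, scaled to library size, as estimated by RSEM) reached at least 2 in at least 1 of the 55 livers. Of 37620 genes in the files, 695 had such a symbol and 105 of these were members. The rule used the highest FPKM of each gene, so that this value describes the members and tests nothing. The members with the lowest maxima were Crry-ps at 2.22, Rpl22-ps1 at 2.23 and Vma21-ps at 2.26 FPKM, and the highest maxima outside the set were Ces2d-ps at 1.99, Rps6-ps1 at 1.77 and Rpl7a-ps10 at 1.68 FPKM. A further 379 of the -ps genes were listed at 0 in every mouse.

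A processed pseudogene is a copy of a messenger RNA that was reverse-transcribed and inserted elsewhere in the genome, so it usually lacks introns and closely resembles its parent. An unprocessed pseudogene arises by duplication and keeps the exon structure of the gene it came from. Ribosomal protein genes, which are transcribed in nearly every cell, have left many processed copies in mammalian genomes, and insertions of this kind can be present in some mouse strains and absent from others.

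Livers of 55 male mice of 29 Collaborative Cross (CC) lines, none of them treated, were sequenced as polyA RNA. The CC lines are recombinant inbred lines bred from 8 founder strains, and the mice came from different generations of inbreeding. Mice were between 8 and 11.9 weeks old, and 8 lines were represented by 1 mouse, 16 by 2 and 5 by 3. The members took between 0.0863% and 0.288% of the estimated fragments of a mouse, whose total ranged from 20542671 to 33953036. Summed FPKM of 6 hepatocyte markers lay between 21350 and 71798, against a highest sum of 186 for 4 Kupffer cell markers and of 7.35 for 3 lymphocyte markers. Red cell markers summed to between 62.4 and 1335, and pancreas markers to between 1.24 and 177. Mates were intermixed in 2 lines. Over 11179 genes other than the -ps genes, mouse 1 of IL-1052 correlated at a Spearman's rho of 0.978 and 0.976 with mice 1 and 3 of IL-2750 but 0.935 with its mate, and mouse 2 of IL-1052 at 0.969 with mouse 2 of IL-2750. Counts over lines, combined levels and correlations were therefore also computed without these lines.

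The label of processed pseudogenes did not hold for every member. The GENCODE annotation of NCBIM37, the build of the files, listed 76 members with a single exon and 29 with more. It typed 71 as pseudogenes, 30 as protein coding, 2 as processed transcripts, and 1 each as a polymorphic pseudogene and a lincRNA. By symbol stem, 47 members belonged to ribosomal proteins, 10 to the major urinary proteins, 3 to drug metabolism, 2 to histone and chromatin proteins, 1 to the immune system and 42 to other families. All 10 major urinary protein members had 6 or more exons. A parent gene could be named from the stem for 78 members, which gave 61 parents. Of these members, 68 had a single exon where the parent had several.

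Most members were close copies of their parent. Aligned to the parent, 38 of the 78 members were at least 99% identical over the best alignment, 9 were identical over it, and the lowest identity was 89.8%. Windows of 50 bases, the length of a sequencing read, were compared with the transcripts of all other genes. At the median member 70.7% of windows also occurred in another gene on the same strand (71.4% on either strand), 13 members had no window of their own, and 5 members (Cyp2d37-ps, H2-Ea-ps, Ppp4r1l-ps, Serpina4-ps1 and Vamp7-ps) shared none. The share was higher on either strand for 7 members, most of all for Got2-ps1, at 96.0% against 64.4%. A fragment that lies in a shared window cannot be assigned to 1 gene by its sequence, and RSEM then divides it among the genes. The levels of members and parents with many shared windows are therefore uncertain. Rps19-ps1 and Rps19-ps2 had identical transcripts and identical values in every mouse.

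In the reference sequence a few members differed from the parent by 1 or 2 bases over their whole length. There, these bases alone separate the copy from the parent. The lines carry haplotypes of different founder strains, and the bases of those strains at these positions were not examined. The reference bases of 3 members with large differences among lines are shown. In each pair the capital marks the base that differs, positions count from 1 at the 5′ end of the member's transcript, and the substitution gives the parent's base first. Scp2-ps2 differed from Scp2 by A192C, Rpl3-ps1 from Rpl3 by C58A and T787C, and Rpl35a-ps2 from Rpl35a by G203A. The sequences are from NCBIM37, and the member windows lie at chr9:123216852-123216880 (minus strand), chrX:12779740-12779768 (plus strand), chrX:12780469-12780497 (plus strand) and chr1:183172282-183172310 (minus strand). The windows of the parents lie at chr4:107728094-107728122 (minus strand), chr15:79912945-79912973 and chr15:79910169-79910197 (minus strand), and, across an intron, chr16:33057606-33058770 (plus strand).
Scp2-ps2: aaagatggccctggCggcaaagaagctac
Scp2: aaagatggccctggAggcaaagaagctac
Rpl3-ps1, first difference: ggcttcctgcctcgAaagcgcagcagccg
Rpl3, first difference: ggcttcctgcctcgCaagcgcagcagccg
Rpl3-ps1, second difference: caccctgcccgtgtCgccttctctgtggc
Rpl3, second difference: caccctgcccgtgtTgccttctctgtggc
Rpl35a-ps2: gcttatgtgtataaAgcaaaaaacaatac
Rpl35a: gcttatgtgtataaGgcaaaaaacaatac

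**Figure D1:**
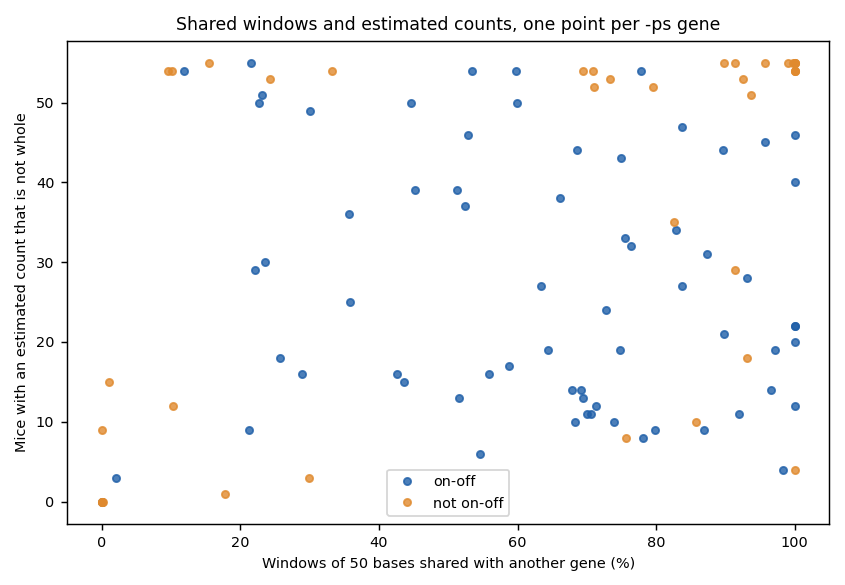
Each point is 1 of the 105 members, with the percentage of its 50-base windows that occur in another gene on the x axis and the number of the 55 mice whose estimated count was not a whole number on the y axis. Color separates the 67 members that were on in some lines and off in others from the other 38. The 5 members with counts that were whole in every mouse lie at the lower left.

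A sign of divided fragments is an estimated count that is not whole. Within a tolerance of 0.005, counts were whole in every mouse for 5 members, namely H2-Ea-ps, Krt72-ps, Ppp4r1l-ps, Serpina4-ps1 and Vamp7-ps. Counts were not whole in 50 or more mice for 32 members. Only identical windows counted as shared, so the share can miss some division of fragments. Cyp2d37-ps shared no window, yet its count was not whole in 9 mice.

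Levels differed widely among members. In whole liver, fewer cells that express a gene and less of its RNA per cell cannot be told apart. The median over mice was 0 for 40 members and at least 2 FPKM for 33. Rpl10-ps3 had the highest median at 512 FPKM (lowest 404, highest 758), followed by Rpl27-ps3 at 237 (167 to 372) and Rpl10a-ps1 at 193 (126 to 350). These 3 members had no mouse below 2 FPKM, and their levels exceeded those of their parents: Rpl10 had a median of 116, Rpl27 of 17.8 and Rpl10a of 12.0 FPKM. Rpl15-ps3, with a median of 164 FPKM, exceeded Rpl15 at 35.1 in the same way. All 4 shared from 99.8% to 100% of their windows with the parent. Rpl35a-ps2 (median 176), Rpl3-ps1 (111), Rpsa-ps10 (84.6), Rps2-ps13 (73.7), Serpina4-ps1 (57.1) and Eif4a-ps4 (37.5 FPKM) completed the 10 highest medians. Across the 78 pairs the parent had the higher median FPKM in 70.

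A line was called on for a member when each of its mice reached 2 FPKM and off when each was under 0.2 FPKM. By this measure 67 of 105 members (63.8%) were on in at least 1 line and off in another. The background was 8.03% of the 11284 genes with a maximum of at least 2 FPKM. Both shares follow a choice on the maximum, and the members had low medians, so the difference between them is given as a description. On-off members were on in a median of 5 lines and off in a median of 16. Among ribosomal protein members 30 of 47 were on-off, among major urinary protein members 8 of 10, among drug metabolism members 1 of 3, among histone and chromatin members 0 of 2, and among the other families 27 of 42, and the only immune member was on-off. The on-off share was 18 of 32 for members with less than 50% of windows shared and 49 of 73 for the rest. Only 1 of the 5 members with whole counts in every mouse, H2-Ea-ps, was on-off.

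**Figure D2:**
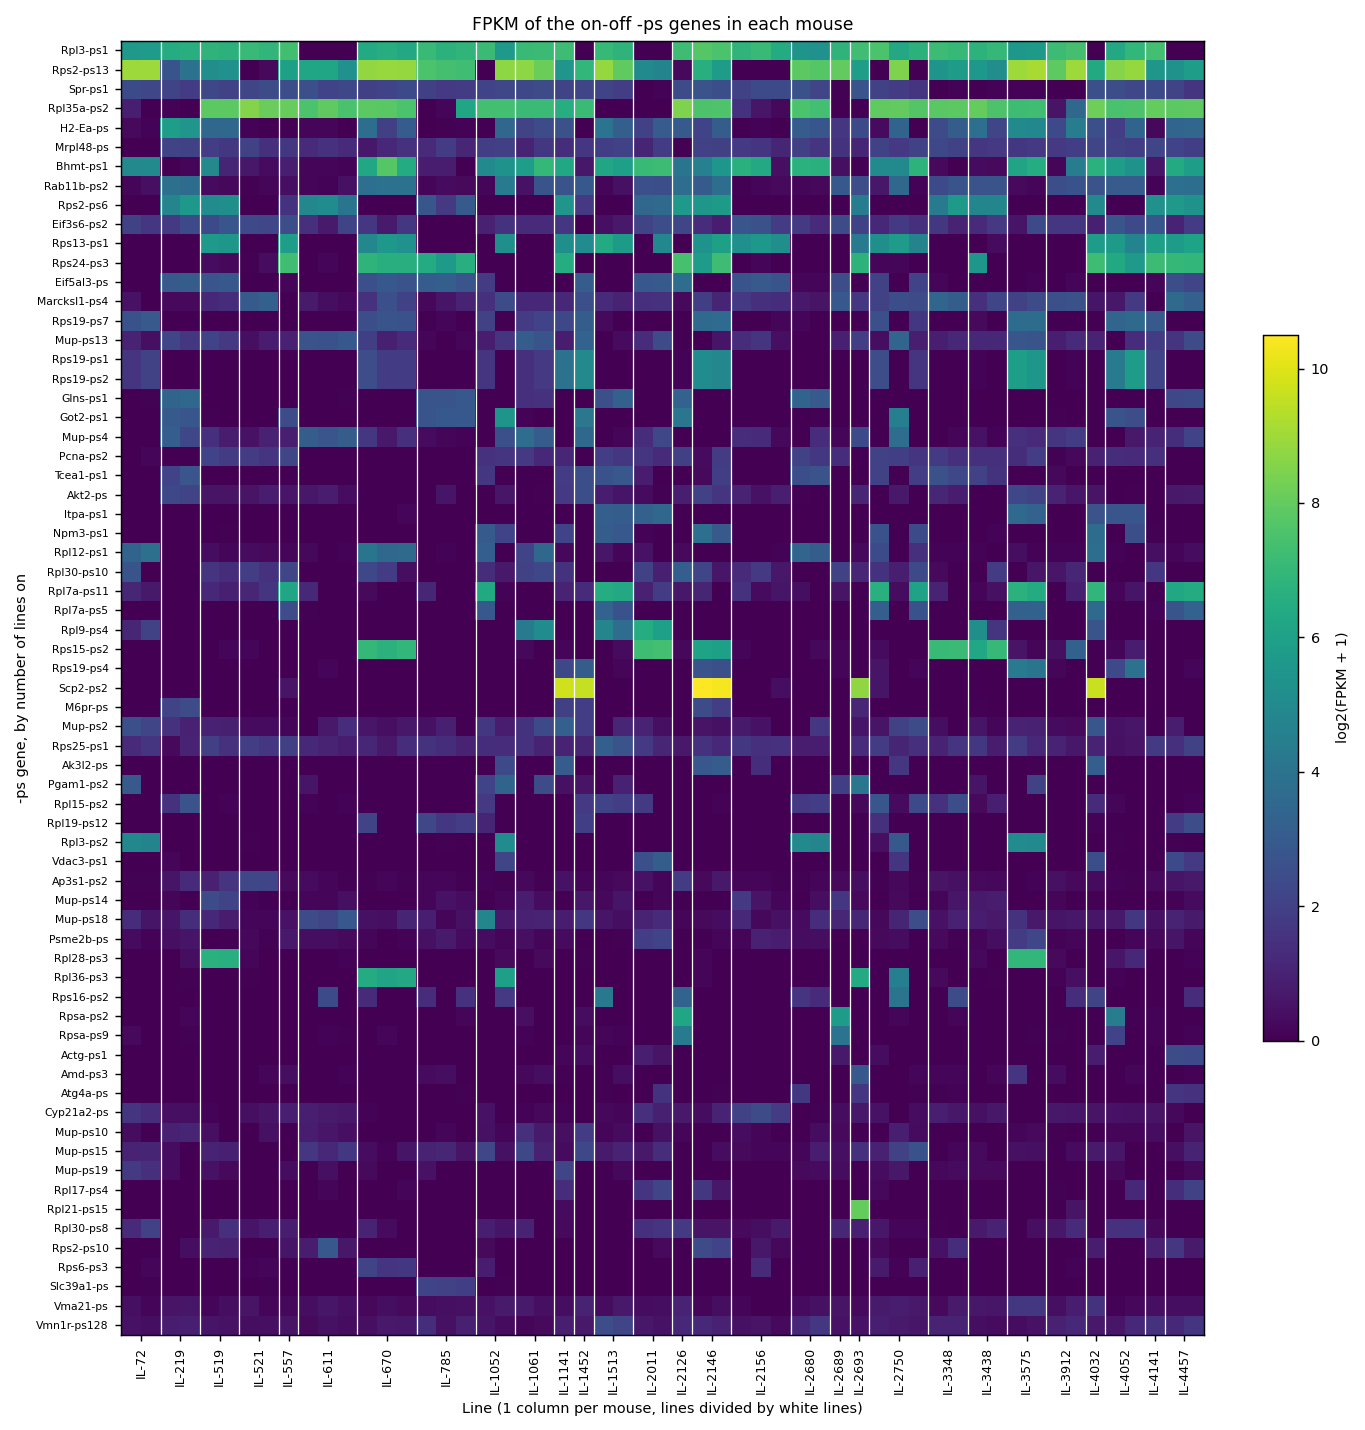
Each row is 1 of the 67 on-off members and each column 1 of the 55 mice, grouped by line, and color gives log2(FPKM + 1). Rows are ordered by the number of lines on, from Rpl3-ps1 and Rps2-ps13 with 24 to members on in 1 line, and most mates of a line have the same color.

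Mates of a line mostly agreed. Over the 21 lines with at least 2 mice and the 67 on-off members there were 1407 combinations of a line and a member. Of these, 262 were on, 700 off and 385 between the limits, and in 60 the mates split, with 1 mouse at or above 2 FPKM and another under 0.2. The on-off measure itself asks for lines in which all mates agree. Split mates occurred in at least 1 line for 34 of the 67 members, against 335 of the 906 on-off genes of the background. IL-1052 held 20 of the 60 splits and IL-2750 held 19, and no other line held more than 3. Without these 2 lines the number of on-off members was still 67.

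A first group was on in 10 or more lines. Rpl3-ps1 and Rps2-ps13 were on in 24 lines, Spr-ps1 in 23, Rpl35a-ps2 in 20, H2-Ea-ps in 19, Mrpl48-ps in 16, Bhmt-ps1, Rab11b-ps2 and Rps2-ps6 in 15, Eif3s6-ps2 and Rps13-ps1 in 14, Rps24-ps3 in 11 and Eif5al3-ps in 10. A second group was on in between 5 and 9 lines: Marcksl1-ps4 and Rps19-ps7 in 9, Mup-ps13, Rps19-ps1 and Rps19-ps2 in 8, Glns-ps1, Got2-ps1, Mup-ps4, Pcna-ps2 and Tcea1-ps1 in 6, and Akt2-ps, Itpa-ps1, Npm3-ps1, Rpl12-ps1, Rpl30-ps10, Rpl7a-ps11, Rpl7a-ps5, Rpl9-ps4, Rps15-ps2, Rps19-ps4 and Scp2-ps2 in 5. M6pr-ps, Mup-ps2 and Rps25-ps1 were on in 4 lines, and Ak3l2-ps, Pgam1-ps2, Rpl15-ps2, Rpl19-ps12, Rpl3-ps2 and Vdac3-ps1 in 3. Ap3s1-ps2, Mup-ps14, Mup-ps18, Psme2b-ps, Rpl28-ps3, Rpl36-ps3, Rps16-ps2, Rpsa-ps2 and Rpsa-ps9 were on in 2 lines. The last 15 were on in 1 line: Actg-ps1, Amd-ps3, Atg4a-ps, Cyp21a2-ps, Mup-ps10, Mup-ps15, Mup-ps19, Rpl17-ps4, Rpl21-ps15, Rpl30-ps8, Rps2-ps10, Rps6-ps3, Slc39a1-ps, Vma21-ps and Vmn1r-ps128.

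Scp2-ps2, a copy of the gene for sterol carrier protein 2, which binds and moves lipids in the liver cell, had the highest maximum of the set. Its FPKM was 1452 and 1322 in the mice of IL-2146, 859 in IL-1141, 804 in IL-4032, 755 in IL-1452 and 428 in IL-2693. In the mice of the other 24 lines it did not exceed 0.53, so the 5 lines stood apart without overlap. Of these lines 4 had 1 mouse, and IL-2146 was the only one with a replicate. Scp2 itself was at 1385 in IL-1141, 1160 in IL-1452, 1162 in IL-4032, 1454 in IL-2693, and 2097 and 1921 in IL-2146.

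Rpl3-ps1, a copy of the gene for a large ribosomal subunit protein, was listed at 0 in each of the 9 mice of IL-1452, IL-2011, IL-4032, IL-4457 and IL-611. In the other lines it lay between 39.2 and 214 FPKM, so the groups did not overlap. Rpl3 was at 166 in IL-1452, at 233 and 209 in IL-2011, at 245 in IL-4032, at 188 and 174 in IL-4457, and at 182, 202 and 162 in IL-611. In the lines with Rpl3-ps1, Rpl3 reached at most 145 FPKM.

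Rpl35a-ps2 showed a split of the same kind. It was below 0.2 FPKM in every mouse of IL-1513, IL-2011, IL-219, IL-2689 and IL-2693, and between 91.9 and 372 in the 20 lines that were on. The mice of IL-2156 and IL-72 did not exceed 1.89 FPKM. In IL-785 the mice were at 0, 0.12 and 72.1 FPKM, and in IL-3912 at 0.47 and 10.4. Rpl35a in the same order was at 279, 294 and 177 in IL-785 and at 358 and 391 in IL-3912. Every window of Rpl35a-ps2 also occurred in another gene, and DESeq2 gave it no adjusted p.

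Rps26-ps1 was never off but had 2 separate levels. It was at 77.2 and 77.4 FPKM in IL-1061, 235 in IL-1452, 104 and 93.0 in IL-1513, 98.3 in IL-2693, 102 and 98.9 in IL-3575, and 91.9, 43.0 and 79.6 in IL-785. In the other 23 lines it did not exceed 7.56. Rps15-ps2 was between 60.5 and 166 FPKM in IL-2011, IL-2146, IL-3348, IL-3438 and IL-670 and reached 8.62 in 1 mouse of IL-3912. Rpl28-ps3 was at 122 and 124 FPKM in IL-3575 and at 102 and 96.5 in IL-519, and did not exceed 1.31 elsewhere. Rpl21-ps15 was at 262 FPKM in the only mouse of IL-2693 and at most 0.46 in every other mouse.

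The lines were also divided for some on-off members of low level. Spr-ps1, which resembles the gene for sepiapterin reductase, an enzyme of tetrahydrobiopterin synthesis, was at or below 0.08 FPKM in every mouse of IL-2011, IL-2689, IL-3348, IL-3438, IL-3575 and IL-3912 and between 2.00 and 5.63 in the other lines. Its parent Spr ranged from 32.3 to 73.2 FPKM, and Spr-ps1 shared 22.7% of its windows with it. Glns-ps1, a copy of the glutamine synthetase gene Glul, was between 3.79 and 10.8 FPKM in IL-1513, IL-2126, IL-219, IL-2680, IL-4457 and IL-785. It was at 1.72 and 1.80 in IL-1061 and at most 0.05 elsewhere. Slc39a1-ps was at 3.28, 3.03 and 2.83 FPKM in the 3 mice of IL-785 and off in the other 28 lines. Marcksl1-ps4, with 2.07% of windows shared, was on-off by the limits but spread over a range without such a division. IL-4457 had the highest line mean, with mice at 11.2 and 8.43 FPKM, and IL-3348 followed at 9.66 and 7.55.

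**Figure D3:**
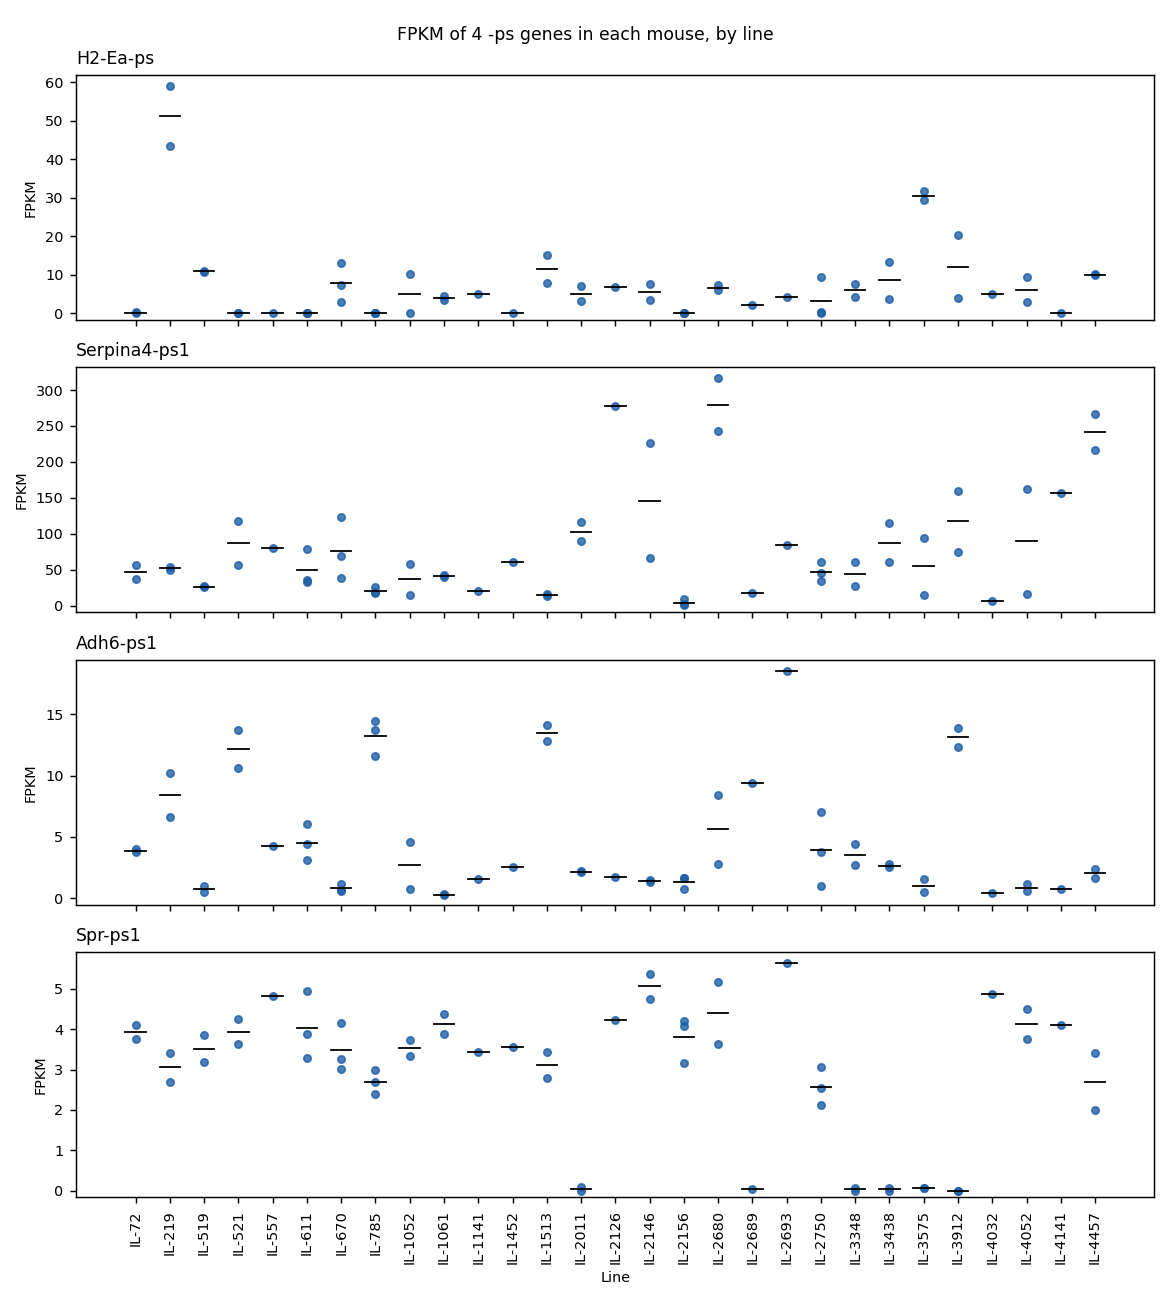
FPKM of H2-Ea-ps, Serpina4-ps1, Adh6-ps1 and Spr-ps1 in each mouse (points) by line, with the line mean as a bar. H2-Ea-ps and Spr-ps1 are near 0 in some lines, whereas Serpina4-ps1 and Adh6-ps1 vary over a continuous range.

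H2-Ea-ps lies in the major histocompatibility complex at chr17:34478897-34481589, and its 4 exons make it no processed copy. The gene codes for the alpha chain of a class II molecule, which presents peptides to T cells, and it is named a pseudogene because the reference strain C57BL/6J carries an inactive allele. It was at 59.1 and 43.5 FPKM in IL-219, 31.6 and 29.4 in IL-3575, and 10.8 and 10.9 in IL-519. It was under 0.2 FPKM in every mouse of IL-1452, IL-2156, IL-4141, IL-521, IL-557, IL-611, IL-72 and IL-785. Mates split in IL-1052, at 0 and 10.1 FPKM, and in IL-2750, at 0.24, 9.37 and 0. The low values in these 2 lines belonged to the 3 mice that resembled each other over all genes. Class II genes are expressed mainly by immune cells. The summed FPKM of the Kupffer cell markers was 115 and 89.1 in IL-219 and 83.3 and 79.3 in IL-3575, and between 19.6 and 186 in the mice of the 8 lines under 0.2. That of the lymphocyte markers was 1.01 and 0.56 in IL-219, 1.02 and 0.67 in IL-3575, and between 0.08 and 1.41 in those 8 lines. Between mates of the lines that were on, the lymphocyte markers mostly moved with H2-Ea-ps. In IL-3912 they were at 0.49 and 7.35 where H2-Ea-ps was at 3.97 and 20.3. In IL-4052 they were at 0.39 and 1.70 where it was at 2.79 and 9.32. The direction was the same in IL-219, IL-2011, IL-2146, IL-3348, IL-3575 and IL-670. It was also the same in IL-4457 and IL-519, where H2-Ea-ps hardly differed between mates. The markers went the other way in IL-3438, at 0.82 and 0.89 where H2-Ea-ps was at 13.4 and 3.6. They also did in IL-1513, at 0.15 and 0.25 where it was at 15.2 and 7.96, and in IL-1061 and IL-2680. The part of such cells in the levels was not tested.

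Serpina4-ps1, a member with no shared window and whole counts in every mouse, belongs by its stem to the serine protease inhibitors that hepatocytes secrete. Over all mice the lowest value was 0.81, the median 57.1 and the highest 316 FPKM. IL-2156 was lowest, at 9.54, 2.02 and 0.81, and IL-2680 highest by line mean, at 242 and 316, followed by IL-2126 at 277 and IL-4457 at 216 and 267. Mates also differed: IL-4052 held 16.8 and 162, and IL-3575 held 94.7 and 14.3 FPKM. The difference among lines passed the test (adjusted p = 0.000127, edgeR's quasi-likelihood test with Benjamini-Hochberg adjustment).

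The stems of 3 members belong to drug metabolism, the subject of the study. Adh6-ps1, related to the alcohol dehydrogenases, shared 1.13% of its windows and ranged from 0.22 to 18.6 FPKM with a median of 2.53. It was highest in IL-2693 at 18.6, IL-785 at 13.7, 14.4 and 11.6, IL-1513 at 14.2 and 12.9, IL-3912 at 12.3 and 13.9, and IL-521 at 13.8 and 10.7, and lowest in IL-1061 at 0.33 and 0.22 (edgeR, adjusted p = 9.96e-08). Cyp2d37-ps, of the cytochrome P450 2D family, was on in every line, from 3.84 FPKM in IL-2126 to 16.7 in 1 mouse of IL-2146 (edgeR, adjusted p = 0.00859). Cyp21a2-ps, related to steroid 21-hydroxylase, was on in IL-2156 alone, at 3.22, 4.35 and 2.61 FPKM, with the next highest values of 2.02 in IL-72 and 1.71 in IL-2011 (edgeR, adjusted p = 6.56e-07).

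Major urinary proteins are pheromone carriers that the male mouse liver makes in quantity, and their genes lie in a cluster of near-identical copies on chromosome 4. The 10 members from this cluster were low, with a median of their medians of 0.26 FPKM, and a median of 81.5% of their windows were shared. Mup-ps18 reached 27.3 FPKM in mouse 1 of IL-1052 against 0.63 in its mate, and 4.43, 3.59 and 6.24 in IL-611. Outside IL-1052 its highest value was thus 6.24 FPKM. The other 9 members did not exceed 12.4 FPKM.

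Differences among lines were tested across all genes in 21 lines, leaving out those with a single mouse, which gave 47 mice. Of 128 -ps genes tested, 112 differed among lines, against a background of 88.5% of 15285 genes. Among the members 95 of 102 tested differed, against 94.0% of the tested genes with a maximum of at least 2 FPKM. The shares from edgeR lie near their backgrounds. DESeq2 called 69 members and gave no adjusted p for 4, against 73.3% of all genes with an adjusted p and 93.5% of those with a maximum of at least 2 FPKM, so the count of members depended on the tool. Of 99 members with an adjusted p from both tools, 24 calls of edgeR were lost in DESeq2 and 1 was gained, and Slc39a1-ps, Itpa-ps1, Rpl9-ps4 and Rps19-ps4 were among those lost. Of the 61 parents 53 differed.

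The 10 members with the smallest adjusted p in edgeR were Rps26-ps1 (7.56e-18), Rpl3-ps1 (2.12e-14), Spr-ps1 (6.26e-14), Rps15-ps2 (5.34e-13), Rpl28-ps3 (1.09e-11), Hmgn2-ps1 (2.46e-11), Rpl17-ps5 (1.27e-10), Glns-ps1 (1.75e-10), Rps2-ps6 (1.41e-09) and Ap3s1-ps2 (5.09e-09). Scp2-ps2, with 1 replicated line on, had an adjusted p of 2.65e-08 in edgeR but 0.82 in DESeq2. Of the 7 tested members that did not pass, those with the largest adjusted p in edgeR were Apoo-ps (0.231), Rpl30-ps9 (0.191), Rps16-ps2 (0.175), Rpl22-ps1 (0.172) and Rpsa-ps10 (0.165). Rpsa-ps10 passed without IL-1052 and IL-2750 (edgeR, adjusted p = 0.00447).

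The parent was then set beside its members in each line. For Rps2, a gene for a small ribosomal subunit protein, the 3 members together took from 0.0157% of the combined fragments in IL-521 to 85.5% in IL-4052. The parent was at 57.9 CPM (estimated fragments of the gene, scaled to library size) in IL-4052 (line mean) and 590 in IL-2146. Between its extreme line means Rps2 differed 10.2-fold, whereas the sum of parent and members differed 2.00-fold. Without IL-1052 and IL-2750 both folds were the same. In IL-3912 Rps2 was at 263 and 102 FPKM where Rps2-ps13 was at 238 and 495, and in IL-1061 Rps2 was at 68.0 and 281 where Rps2-ps13 was at 419 and 279.

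**Figure D4:**
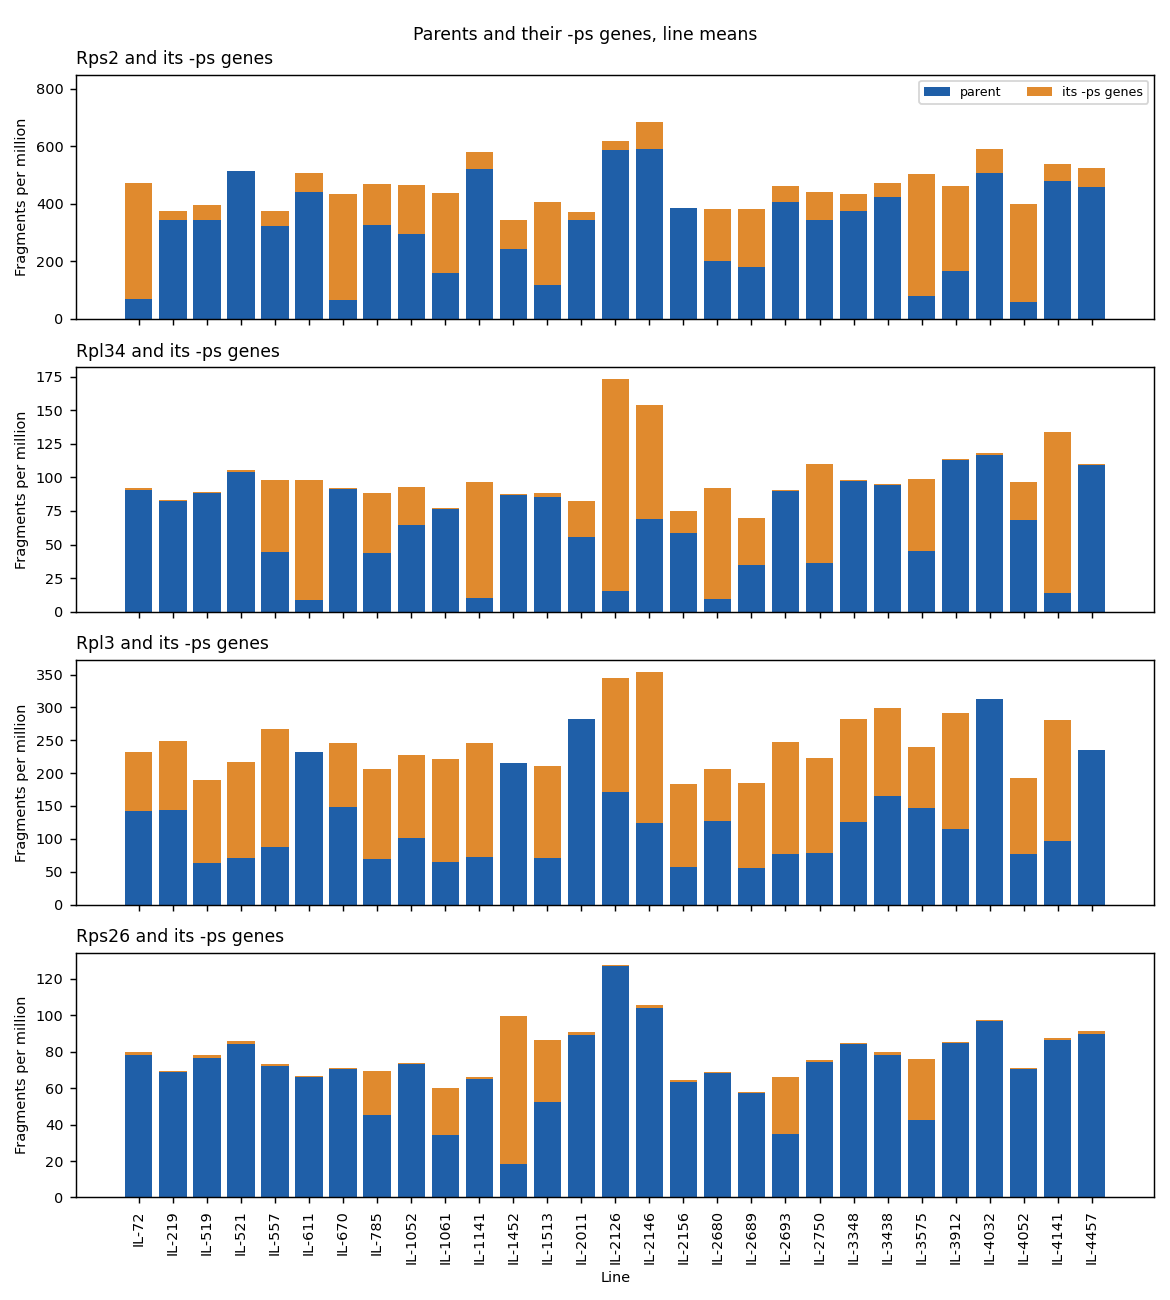
Line means in CPM of 4 ribosomal protein genes (blue) with the sum of their -ps genes stacked on top (orange), by line. Between the highest and lowest line the blue bar of Rps2 differs 10.2-fold and the whole bar 2.00-fold, and the same is seen for Rpl34, Rpl3 and Rps26.

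The same held for some other ribosomal protein genes. The extreme line means differed 13.3-fold for Rpl34 and 2.48-fold for its sum with Rpl34-ps1, 5.61 and 1.92 for Rpl3, 6.87 and 2.21 for Rps26, and 33.1 and 6.04 for Rpl7a. None of these folds changed without IL-1052 and IL-2750. For others the sum varied as much as the parent, with folds of 4.64 and 4.64 for Rps6, 2.31 and 2.35 for Rps16 and 2.09 and 2.09 for Rpl22. In no line did their members exceed 0.75%, 2.67% and 0.77% of the combined fragments, in this order. Their sums could therefore hardly differ from the parent. Outside the ribosome, Rab11b, a small GTPase of endosome recycling, had folds of 2.95 and 1.43. Rpl34-ps1 was at 274, 304 and 253 FPKM in IL-611 where Rpl34 did not exceed 23.1, and at 0.61 and 1.76 in IL-3348 where Rpl34 was at 217 and 251. In IL-2156 the second mouse alone had Rpl34-ps1, at 148 FPKM, and its Rpl34 was at 91.7 against 171 and 169 in its mates.

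Over the 61 parents the standard deviation of the line means, on the log2 scale of CPM + 1, was lower for the sum than for the parent alone in 49. Its median was 0.303 for parents and 0.264 for sums. Some of the 49 drops were small, such as from 0.2881 to 0.2877 for Rps25 and from 0.1617 to 0.1603 for Vdac3. Without IL-1052 and IL-2750 the standard deviation was lower for 48 sums. Rps13 was an exception, since Rps13-ps1 was on in 14 lines and off in 12 while Rps13 stayed between 5.50 and 23.4 FPKM. Its extreme line means differed 2.97-fold alone and 7.77-fold with Rps13-ps1. Rpl21 varied 134-fold among line means and 108-fold with Rpl21-ps15. In 9 parents the members took more than 50% of the combined fragments at the median line, with 92.4% for Rpl10a, 91.9% for Mrpl23, 90.7% for Rpl27, 83.9% for Nutf2 and 80.1% for Rpl10. Copies without a -ps symbol were not part of the sums. They share windows with some members, for example 84.6% of those of Rpl34-ps1 with Gm10154. Whether the fragments came from the copy or the parent was not tested.

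**Figure D5:**
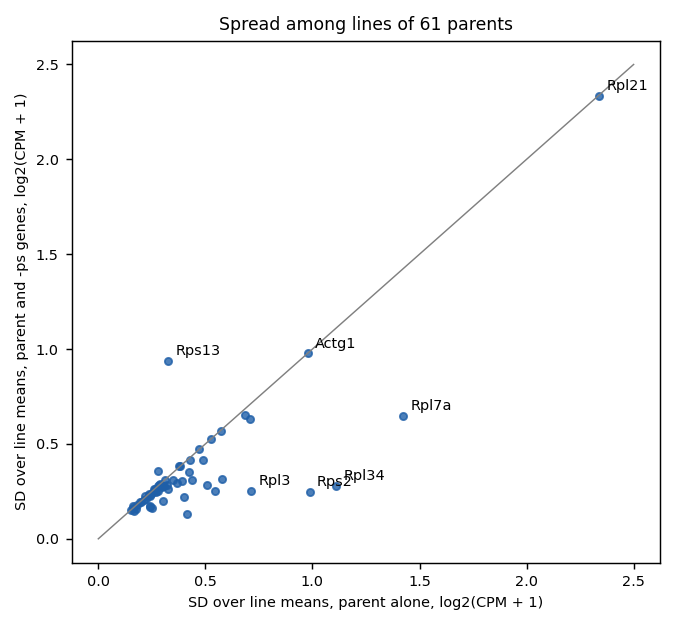
Each of the 61 points is a parent, with the standard deviation over 29 line means of log2(CPM + 1) for the parent alone on the x axis and for the sum with its members on the y axis. The grey line marks equal values, 49 points lie below it, and Rps13 lies above.

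Correlations between line means of member and parent, on log2(FPKM + 1), left out 55 of 78 pairs by a rule on clusters. It removed pairs whose member was on-off, or where sorted line means of member or parent had a gap over 2. Smaller divisions among lines remained. Of the other 23 pairs 22 could be computed over 29 lines, and p-values were adjusted over them (permutation test, 100000 permutations, two-sided). The lines share founder haplotypes and are not fully independent. Pisd-ps1 rose with Pisd, which codes for phosphatidylserine decarboxylase (Pearson's r = 0.77, permutation p = 1e-05, the smallest the permutations can give, adjusted 0.00022, and Spearman's rho = 0.76, permutation p = 2e-05, adjusted 0.00022). Pisd-ps2 had r = 0.66 (permutation p = 0.00011, adjusted 0.00066) and rho = 0.68 (permutation p = 0.0001, adjusted 0.00073). Rpl10a-ps1 (r = 0.72 and rho = 0.73, adjusted permutation p = 0.00044 and 0.00022), Rpl27-ps3 (r = 0.63 and rho = 0.55, 0.000704 and 0.012) and Rpl22-ps1 (r = 0.54 and rho = 0.57, 0.00858 and 0.00798) also passed by both measures. Rpl17-ps5 (r = -0.71 and rho = -0.24, adjusted permutation p = 0.00066 and 0.368), Hmgn2-ps1 (r = -0.64 and rho = -0.34, 0.00154 and 0.193) and Rps27a-ps2 (r = -0.51 and rho = -0.36, 0.0125 and 0.18) passed by Pearson's r only. Hmgn2-ps1 did not exceed 0.89 FPKM in IL-2011, IL-219, IL-3348 and IL-3575 and was at least 2.82 in every other mouse. Its r includes this contrast between groups of lines. Without the 2 lines farthest from the median of the parent, Hmgn2-ps1 (r = -0.45), Rps27a-ps2 (r = -0.41) and Rpl22-ps1 (r = 0.41) kept their sign but no longer passed (adjusted permutation p = 0.059, 0.0778 and 0.0778 in this order). The other pairs were Pisd-ps1 (r = 0.71), Pisd-ps2 (r = 0.59), Rpl10a-ps1 (r = 0.64), Rpl27-ps3 (r = 0.49) and Rpl17-ps5 (r = -0.54), which still passed by r, although Rpl27-ps3 no longer passed by rho (0.44, adjusted permutation p = 0.0677). Without IL-1052 and IL-2750 the 8 pairs had r of 0.76, 0.67, 0.73, 0.64, 0.54, -0.72, -0.65 and -0.53 in the order first given, and each still passed by r. On CPM with TMM factors, Pisd-ps2 passed by r (0.46, adjusted permutation p = 0.0351) but not by rho (0.46, adjusted permutation p = 0.0519). The parent held 100% of the windows of Rpl10a-ps1, 99.8% for Rpl27-ps3, 89.5% for Rps27a-ps2, 82.2% for Hmgn2-ps1 and 82.0% for Rpl17-ps5. It held 15.1% for Rpl22-ps1, 11.9% for Pisd-ps1 and 10.2% for Pisd-ps2. Estimated counts were still not whole in 53 mice for Rpl22-ps1, 55 for Pisd-ps1 and 54 for Pisd-ps2. Fragments were thus divided for these members too, with the parent or with other genes. Where many windows are shared, RSEM divides fragments between member and parent. The 2 levels of such a pair are then not separate measurements, whatever the p-value.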

How the data were processed

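Liver polyA RNA of 55 mice was sequenced by the study as paired reads of 50 bases. Per the labels and the study's methods, the authors quantified them with RSEM 1.2.18 and Bowtie 2 on mm9 with default parameters, so that fragments matching several genes were shared out by estimation. The kit keeps strand, and whether the counting used it is not given in the sources used here. The deposited expected counts are estimated fragments per gene without normalization, the deposited FPKM are scaled by length and library, and the deposited TPM are scaled to a fixed total. An isoform table served only to check transcript lengths. Depth ranged from 20542671 to 33953036 estimated fragments per mouse, and from 21.8% to 28.8% of gene estimates above 0 were not whole. Symbols came from the reference annotation of the same build and matched 37205 of 37620 gene IDs.

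Members and lists were chosen with earlier results of these data known. Named are the on-off members, the 10 highest medians, the 10 smallest adjusted p, 5 members that did not pass, their parents and the drug metabolism stems. Other genes, such as Rpl34-ps1, Mup-ps18 and the pairs with a correlation that passed, were chosen after their values were seen. The major urinary protein group, the combined levels, the members with few shared windows and the cluster rule (a member that was on-off, or a gap over 2 on the log2 scale between sorted line means of member or parent) were added after seeing the data. Parents were genes with the stem as symbol or as a unique RefSeq synonym. The synonyms Mup21 and Fam118b were left out by hand after alignment.

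Expected counts were rounded and tested among lines with edgeR 4.0.16 (TMM, default filter, quasi-likelihood F test) in R 4.3.3, or, alternatively, DESeq2 1.42.0. Adjusted p-values under 0.05 passed. In simulated counts for this comparison (14416 genes), edgeR recovered 96 of 100 genes changed 2-fold and 99 of 100 changed 4-fold, with 6 false calls. The simulation gave every gene the same dispersion and divided no fragments among copies. It therefore does not cover members at 0 in most lines or with many shared windows. Alignments used blastn 2.17.0. Python 3.11.15, numpy 2.4.6, pandas 2.3.3 and matplotlib 3.10.9 were used. The study sequenced on different HiSeq models, and the model used for each mouse was not taken into account. No label names a batch, and nothing says that mates were processed apart, so p-values measure the spread between these mice.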

Additional observations from a re-analysis of the deposited data

How the results depend on the processing

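With DESeq2, without an expression filter and without IL-1052 and IL-2750, the number of -ps genes that differed among lines stayed within 1.5 times of 112. The share did not, since the number tested changed. It was 112 of 128 at first, 83 of 167 with DESeq2 (against 73.3% of all genes) and 122 of 302 without a filter (against 54.8%). Without IL-1052 and IL-2750 it was 112 of 126 (against 89.1%). With at least 10 counts required in every mouse the number was 20, since 21 -ps genes then remained. Leaving out each of the 47 mice in turn, with the dispersion trend of all mice kept, gave from 109 to 119 -ps genes. The on-off members numbered from 54 to 71 under the other limits, units and sets of lines, and from 67 to 75 when each replicate number was left out. Among members with under 50% of windows shared there were 18, and among those with whole counts in every mouse 1 of 5, sets chosen after seeing the data. The cause of the lower share was not tested. The members numbered from 75 to 126 under other limits on the maximum or in TPM. Of the pairs with a parent, 5 had a positive and 3 a negative r that passed. Leaving out each replicate number gave from 5 to 6 and 3, and without the 2 lines farthest from the median of the parent there were 4 positive and 1 negative. None of these 8 pairs changed sign under the alternatives run. Among the members, DESeq2 lost 24 calls and gained 1, and the fit without IL-1052 and IL-2750 lost Mup-ps2 and Pgam1-ps2 and gained Rpsa-ps10. Leaving out 1 mouse lost at most 2 calls at a time, of 9 members in all (Ak3l2-ps, Amd-ps3, Hsp25-ps1, Mup-ps2, Mup-ps10, Mup-ps16, Mup-ps19, Pgam1-ps2 and Rpl19-ps12), and gained those of Krt72-ps, Mdm4-ps and Rpsa-ps10. The sum of parent and members varied less than the parent in 46 to 49 of 61 without each replicate number. No paired analysis was possible because nothing links mice of different lines. The labels carry no replicate numbers, and those used here were given in accession order and only name the mice. Depth limits the members at 0 in most mice, and sequence limits those with shared windows.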
